A study of Mus musculus with 8 samples.

Results

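The HoxB cluster is a run of homeobox genes on mouse chromosome 11, and the 10 genes that the array design names *Hoxb1*, *Hoxb2*, *Hoxb3*, *Hoxb4*, *Hoxb5*, *Hoxb6*, *Hoxb7*, *Hoxb8*, *Hoxb9* and *Hoxb13* were followed through differentiation of embryonic stem (ES) cells by retinoic acid (RA). They were chosen by name alone, as every probe that is not a control and whose gene name is one of these. They account for 10 of 36406 gene names, 11 of 55681 probes and 20 of the 59305 spots on each array that are not controls. RNA came from E14 cells (E14Tg2A.4), an established line of mouse ES cells with no other genetic change named in the labels. In 4 samples the cells were left untreated, and in the other 4 they were exposed to RA for 72 h. The paper's methods give RA in medium without leukemia inhibitory factor, while its untreated cells are called self-renewing. Any effect of that factor's absence cannot be told apart from that of RA in these samples. The untreated samples are the control, both conditions share the line, and the series text calls the 4 samples of a condition biological replicates. Each RNA was labelled with Cy3 from an oligo-dT primer and hybridised to 1 SurePrint G3 array, which measures 1 colour.

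Hox genes encode transcription factors that give cells of the embryo their position from head to tail. Within a cluster the genes at the 3′ end, starting with *Hoxb1*, are switched on earlier and further forward than those at the 5′ end, a property called collinearity. RA, acting through nuclear receptors that bind DNA, is a classical inducer of the 3′ genes, and Polycomb proteins hold the clusters silent in pluripotent cells.

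On the mm9 build, which the array design uses, all 11 probes lay on chromosome 11, in the same orientation, from *Hoxb13* at chr11:96057854-96057913 to *Hoxb1* at chr11:96228450-96228510. The *Hoxb2* probe was 13.3 kb from that of *Hoxb1*, *Hoxb5* 61.3 kb, *Hoxb9* 90.7 kb and *Hoxb13* 170.6 kb. *Hoxb1* was printed as 10 spots, *Hoxb3* was covered by 2 probes, and the other genes had 1 probe each in 1 spot. A probe reads about one place in a transcript, so the sequences show what each signal stands for. The probes of *Hoxb4*, *Hoxb8* and *Hoxb13* hold the letters of the polyadenylation signal, AATAAA, given in capitals in their last 30 bases. These letters were in 3 of 11 HoxB probes (27.3%) and in 10.1% of all 55681 probes:
*Hoxb4*: gacaacagaAATAAAtgtttggtttcttgt
*Hoxb8*: gagttacAATAAAgtttacaagcgagaacc
*Hoxb13*: AATAAAttcggaagacgatcttgtaggaca

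RefSeq promoter sequences, of 300 bases around the start of a gene, were matched for 3 of the 10 genes, on the later build GRCm38.p6, whose positions cannot be set beside those of mm9. They were searched on both strands for AGGTCA (a single site for an RA receptor), for direct repeats of it with a spacer of 2 or 5 bases (DR2 and DR5, the arrangements bound by RA receptor pairs), for TATAAA (the TATA box) and for TGATNNAT (the core bound by Hox and Pbx proteins together), and matches are in capitals:
*Hoxb1*, chr11:96365508-96365807 (GRCm38.p6, + strand): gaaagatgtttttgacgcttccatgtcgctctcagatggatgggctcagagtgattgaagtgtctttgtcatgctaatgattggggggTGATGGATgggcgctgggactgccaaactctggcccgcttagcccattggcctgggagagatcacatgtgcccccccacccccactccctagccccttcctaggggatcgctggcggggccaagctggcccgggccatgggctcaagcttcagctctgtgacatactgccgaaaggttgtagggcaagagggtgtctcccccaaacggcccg
*Hoxb4*, chr11:96318017-96318316 (GRCm38.p6, + strand): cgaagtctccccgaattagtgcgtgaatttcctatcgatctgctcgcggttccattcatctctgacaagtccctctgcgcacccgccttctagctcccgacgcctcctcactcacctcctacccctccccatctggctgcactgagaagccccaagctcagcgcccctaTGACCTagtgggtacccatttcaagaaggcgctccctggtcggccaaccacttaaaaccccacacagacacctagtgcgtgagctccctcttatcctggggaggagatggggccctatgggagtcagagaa
*Hoxb8*, chr11:96281655-96281954 (GRCm38.p6, + strand): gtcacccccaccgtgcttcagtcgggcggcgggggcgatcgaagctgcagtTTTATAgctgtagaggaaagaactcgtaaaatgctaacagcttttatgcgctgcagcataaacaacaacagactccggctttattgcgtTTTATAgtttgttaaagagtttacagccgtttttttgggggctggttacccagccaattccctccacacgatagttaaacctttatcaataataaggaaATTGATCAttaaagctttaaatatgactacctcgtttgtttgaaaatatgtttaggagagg

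*Hoxb1* held TGATNNAT from 162 bases upstream of the start. *Hoxb4* held AGGTCA on the minus strand from 81 bases upstream, and *Hoxb8* held TATAAA on the minus strand from 199 and from 110 bases upstream and TGATNNAT on the minus strand from 11 bases upstream. No DR2 or DR5 was found in these 3 windows. Among 32851 promoters of the same length, 16.3% held AGGTCA, 13.6% TATAAA, 8.85% TGATNNAT, and 0.00913% held each of DR2 and DR5. The matches describe letters in these windows, and whether proteins bind them was not tested.

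After RA, 9 of the 10 HoxB genes rose and none fell by limma (adjusted p under 0.05 over all probes and a fold change above 1.5). Only *Hoxb13*, at the 5′ end, was not called. Of all 55681 probes, 12.9% were called higher and 21.6% lower. The median log2 change was 5.71 over the 10 genes, against -0.28 over all probes. It was 4.48 with each signal that was not well above background raised to the lowest signal that was, on the same array, which is called the floor below. Signals are log2 values relative to the 75th percentile of the spots on the same array, so that -0.28 is the shift that every change below stands beside. The 4 arrays of a condition did not overlap those of the other for any of the 9, and of all probes 13.9% had every RA array above every untreated array and 23.8% every RA array below. Since each array holds RNA from a whole culture, fewer cells with a transcript and less of it per cell cannot be told apart.

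**Figure D1:**
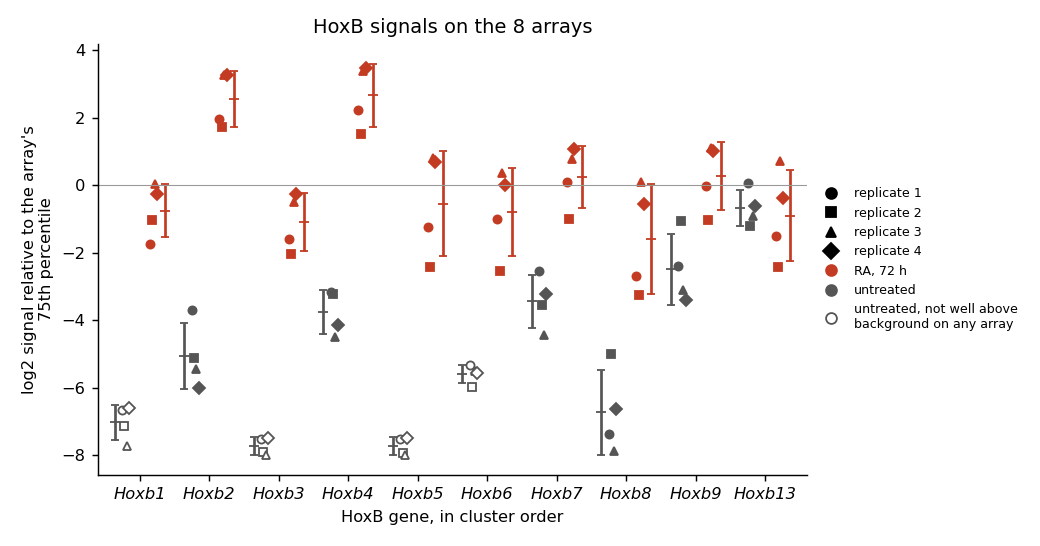
Signal of each HoxB gene (log2, relative to the 75th percentile of the array) on the 4 untreated arrays (grey) and the 4 RA arrays (red), in cluster order, with 1 symbol per replicate and mean ± SD in the bars beside them. *Hoxb1* to *Hoxb9* are separated in every array, while the untreated and RA arrays of *Hoxb13* overlap.

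*Hoxb1*, which patterns the segment of the hindbrain that forms facial motor neurons, had signals of -6.68, -7.13, -7.72 and -6.59 on the untreated arrays and of -1.74, -1.02, 0.03 and -0.27 on the RA arrays, in replicate order. The scanner software flags each spot that is well above background. A probe was counted as such on an array where more than 50% of its spots were flagged. Signals short of that mark are called below background here, although they may exceed the background itself. The *Hoxb1* probe reached the mark on no untreated array, where 1 spot in all, on replicate 3, was flagged. The change was 6.28 ± 0.41 (SE, n = 4 and 4), which as a bound is at least 25.8-fold, with an adjusted p of 1.08e-05 by limma. Its repeated spots, which share 1 hybridisation, had an SD between 0.047 and 0.081 on the RA arrays and between 0.22 and 0.81 on the untreated arrays, and the SD between the 4 RA arrays was 0.79.

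*Hoxb2*, a hindbrain gene, had the largest change among the genes measured in untreated cells. Its untreated signals were -3.69, -5.12, -5.44 and -6.01, of which 3 were well above background, and its RA signals were 1.97, 1.73, 3.28 and 3.27. The groups were separated by 5.42, and the change of 7.63 ± 0.55 corresponds to 198-fold (95% interval of the log2 change 6.38 to 8.87, adjusted p = 1.61e-05 by limma).

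*Hoxb3*, whose domain begins further back in the hindbrain, was not well above background in untreated cells with either probe. The brighter probe read -7.52, -7.92, -7.99 and -7.48 in untreated cells and -1.59, -2.02, -0.49 and -0.24 after RA, and the other probe read -7.12, -7.49, -7.58 and -7.11 and then -2.62, -2.99, -1.74 and -1.30. Both probes placed the 4 RA arrays in the same order. The changes were 6.64 ± 0.39 (at least 20.4-fold, adjusted p = 6.52e-06) and 5.16 ± 0.36 (at least 9.68-fold, adjusted p = 1.38e-05), both by limma.

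*Hoxb4*, known for expanding blood stem cells when forced into them, was the first gene along the cluster that was well above background on all 4 untreated arrays. Its signals there were -3.17, -3.23, -4.50 and -4.13, and 2.25, 1.53, 3.40 and 3.49 after RA. The change of 6.42 ± 0.49 is 85.9-fold (adjusted p = 2.22e-05 by limma), and here both ends of the comparison were measured.

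*Hoxb5*, which is needed for the nerve cells of the gut, was below background in untreated cells, at -7.52, -7.93, -8.00 and -7.50, and reached -1.24, -2.43, 0.81 and 0.69 after RA. The change was 7.20 ± 0.67, at least 29.8-fold (adjusted p = 5.84e-05 by limma). The RA arrays spread over 3.24, more than for any gene nearer the 3′ end, with replicates 3 and 4 above replicates 1 and 2.

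The next 4 genes, of the trunk part of the cluster, had smaller fitted changes. *Hoxb6* read -5.33, -5.97, -5.52 and -5.56 in untreated cells, not well above background on any array, and -0.997, -2.55, 0.36 and 0.02 after RA, a change of 4.80 ± 0.56 that is at least 24.3-fold (adjusted p = 2.08e-04 by limma). *Hoxb7* was measured on every array, at -2.56, -3.54, -4.43 and -3.23 and then 0.11, -0.99, 0.79 and 1.08. That is a change of 3.69 ± 0.51, or 12.9-fold (adjusted p = 5.38e-04 by limma). The groups were separated by 2.78 for *Hoxb6* and by 1.56 for *Hoxb7*, less than for any of the genes from *Hoxb1* to *Hoxb5*.

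*Hoxb8*, a gene of the trunk spinal cord and of early myeloid cells, was the most variable of the 9. Its untreated signals were -7.39, -5.00, -7.87 and -6.65, with only replicate 2 well above background, and its RA signals were -2.69, -3.24, 0.10 and -0.54. The fitted change was 5.13 ± 0.86 (adjusted p = 1.52e-03 by limma). With the other 3 untreated arrays at the floor it was 3.68, or 12.9-fold. *Hoxb9*, at the 5′ end of the dense part of the cluster, read -2.40, -1.05, -3.09 and -3.41 and then -0.01, -1.02, 1.11 and 1.02. The 2 groups of *Hoxb9* were separated by only 0.026, between untreated replicate 2 and RA replicate 2, and its change of 2.76 ± 0.61 (6.78-fold, adjusted p = 6.87e-03 by limma) was the smallest of the 9.

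*Hoxb13*, which lies apart from the other genes and is a gene of the tail end and the prostate, was well above background on all 8 arrays. It read 0.06, -1.19, -0.90 and -0.63 in untreated cells and -1.51, -2.42, 0.71 and -0.37 after RA. The RA arrays lay on both sides of the untreated ones. The change was -0.23 ± 0.62 with a 95% interval from -1.64 to 1.17 (adjusted p = 0.772 by limma), an interval wide enough to hold a fall or a rise past the 1.5-fold limit. Without RA replicate 2 its sign turned, to 0.27, and without untreated replicate 1 it was 0.0092.

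Set along the cluster, the fitted log2 changes were 6.28 to 7.63 for the 5 genes from *Hoxb1* to *Hoxb5* (median 6.64), 2.76 to 5.13 for the 4 genes from *Hoxb6* to *Hoxb9* (median 4.24), and -0.23 for *Hoxb13*. This division was drawn after the values were seen and has no test. As a description over the 10 genes, which share the same arrays, the change followed position with Pearson's r = 0.90 and Spearman's rho = 0.81. Without *Hoxb13*, which stands far off on both measures, r was 0.75 and rho 0.73 over 9 genes. Each RA array gave the same order of the groups: the median change from *Hoxb1* to *Hoxb5* was 6.14, 5.70, 7.24 and 7.48 on RA replicates 1 to 4, and the median from *Hoxb6* to *Hoxb9* was 3.79, 2.75, 5.09 and 5.07. All 4 subtract the same untreated means, and the groups were drawn on these values, so the arrays do not repeat the order independently. The background limits what can be read from this. With signals below background at the floor, the medians drew together, to 4.90 and 3.68, and over the 9 genes r was 0.63 and rho 0.77. With only the 4 genes that were below background on every untreated array set at their bounds, the medians were 4.90 and 4.14, r was 0.53 and rho 0.47. On both scales *Hoxb6* (4.60) then lay above *Hoxb3* (4.35), so that the ranges from *Hoxb1* to *Hoxb5* and from *Hoxb6* to *Hoxb9* overlapped.

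**Figure D2:**
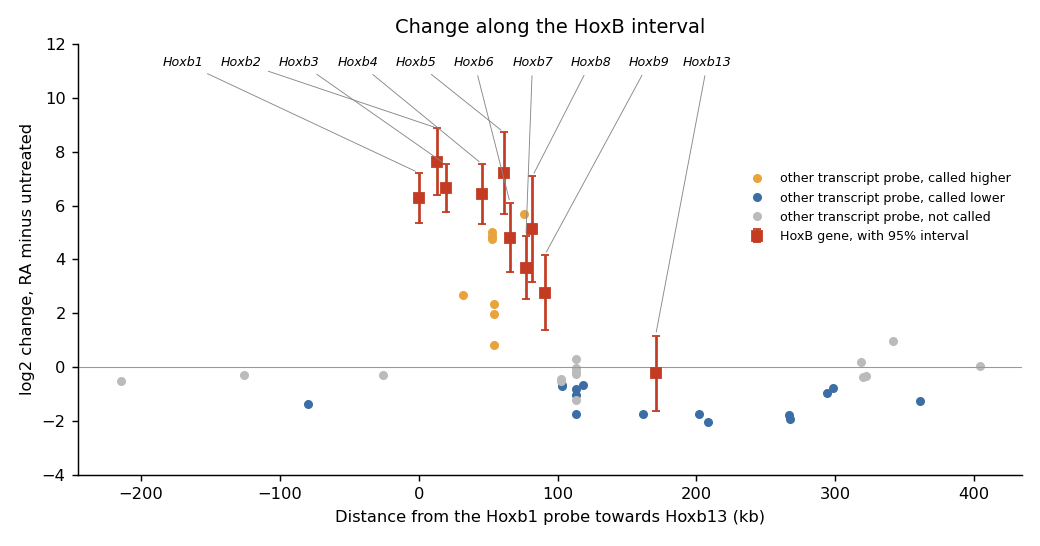
Log2 change after RA against distance from the *Hoxb1* probe (kb, towards *Hoxb13*), for the 10 HoxB genes with 95% intervals (red squares) and for 38 other probes of the interval (circles). Changes of the HoxB genes lie between 6.28 and 7.63 up to *Hoxb5* and fall to -0.23 at *Hoxb13*, and the other probes called higher lie between *Hoxb9* and *Hoxb1*.

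Neighbouring genes were compared directly, as the difference between their log2 signals on each array, with a two-sided exact permutation test over the 8 arrays, in which 0.0286 is the smallest p that 70 relabellings allow. Of 9 pairs, 3 reached it. *Hoxb5* changed more than *Hoxb6* by 2.39 ± 0.24 (SE), *Hoxb8* more than *Hoxb9* by 2.37 ± 0.54, and *Hoxb9* changed more than *Hoxb13* by 2.99 ± 0.71. Adjusted over the 9 pairs each of the 3 had p = 0.0857, so that no pair passed 0.05 after adjustment in this exact test. The adjusted values are given for the main processing only, and not for the settings below where more pairs reached the smallest p. *Hoxb5* and *Hoxb6* were both below background in untreated cells, where their means were -7.74 and -5.60, while their RA means were -0.54 and -0.79, so that most of their difference comes from signals below background. At the floor their changes were 4.90 and 4.60. The untreated signal of *Hoxb8* was likewise below background on 3 arrays. *Hoxb9* and *Hoxb13* were measured on all 8 arrays, but without any 1 RA array their exact p was 0.0571, as was that of *Hoxb8* and *Hoxb9* without RA replicate 3 or 4. Among the other pairs, *Hoxb1* and *Hoxb2* differed by -1.35 ± 0.55 (exact p = 0.0571), and *Hoxb3* and *Hoxb4* by 0.22 ± 0.33 (exact p = 0.514). *Hoxb1* and *Hoxb3* were below background on every untreated array, and at the floor the changes of *Hoxb1* to *Hoxb4* were 4.69, 7.43, 4.35 and 6.42, so that the fitted differences of these pairs also take in signals below background.

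These differences depended on the background correction. With normexp, *Hoxb5* and *Hoxb6* differed by 0.89 and *Hoxb9* and *Hoxb13* by 2.48, both still at the smallest exact p of 0.0286, but *Hoxb8* and *Hoxb9* differed by 0.037 (exact p = 0.886). All 4 pairs from *Hoxb1* to *Hoxb5* then reached an exact p of 0.0286. *Hoxb2* changed more than *Hoxb1* by that measure (-2.80, as *Hoxb1* minus *Hoxb2*) and more than *Hoxb3* (2.72). *Hoxb4* changed more than *Hoxb3* (-2.38, as *Hoxb3* minus *Hoxb4*) and more than *Hoxb5* (1.86), both with the sign turned. The higher gene of each of these pairs was the one brighter in untreated cells.

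The choice of background correction changed the size of the changes but not the calls. With the normexp correction and an offset of 50, which lifts the signals of dim spots, the change of *Hoxb1* was 2.95, of *Hoxb3* 3.04, of *Hoxb5* 3.56, of *Hoxb6* 2.66 and of *Hoxb8* 2.34. The genes brighter in untreated cells kept more of theirs, with 5.75 for *Hoxb2*, 5.42 for *Hoxb4*, 2.82 for *Hoxb7* and 2.31 for *Hoxb9*. All 9 were still called higher. The lowest change from *Hoxb1* to *Hoxb5* (2.95) then stood close to the highest from *Hoxb6* to *Hoxb9* (2.82), and rho over the 10 genes was 0.83. Without *Hoxb13*, r of the change with position was 0.49 over the 9 genes under normexp, in place of 0.75. The log2 values that the authors deposited gave 3.04, 5.88, 3.12, 5.54 and 3.64 for *Hoxb1* to *Hoxb5*.

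**Figure D3:**
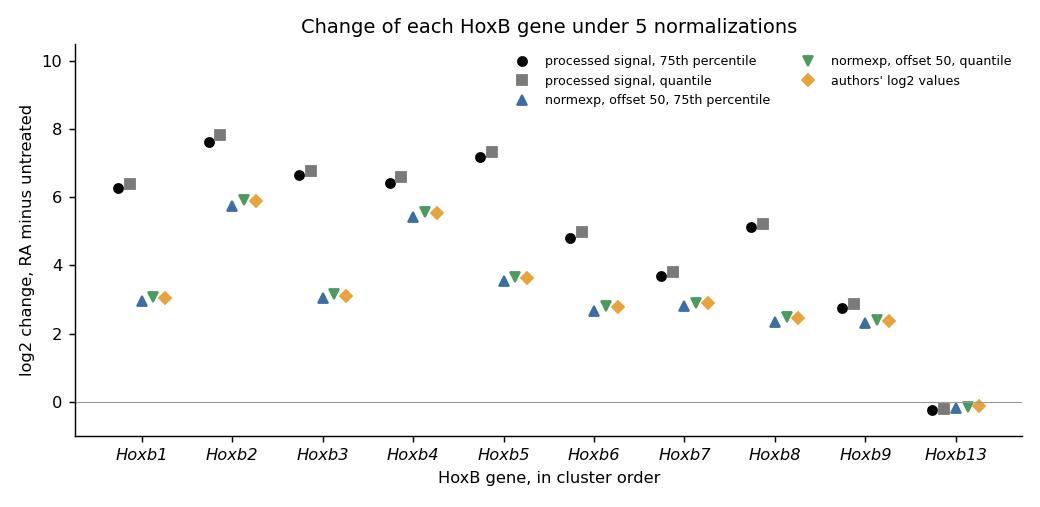
Log2 change after RA of each HoxB gene, in cluster order, under 5 normalizations of the same arrays. Quantile normalization of the processed signal stays close to the values of the text, while normexp with an offset of 50 and the authors' log2 values give smaller changes for genes dim in untreated cells, such as 2.95 in place of 6.28 for *Hoxb1*.

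The 4 RA arrays differed from each other in the same way along the whole cluster. Replicates 3 and 4 were the 2 highest RA arrays for all 10 genes, replicate 3 the highest for 7 and replicate 4 for 3. Replicate 2 was the lowest for 9 genes and replicate 1 for *Hoxb1*. The difference was smallest at *Hoxb1* and *Hoxb2*, where the RA arrays spanned 1.77 and 1.56, and largest at *Hoxb5*, *Hoxb8* and *Hoxb13*, where they spanned 3.24, 3.34 and 3.13. Replicate 2 lay 0.27 below the RA mean for *Hoxb1* and 1.89 below it for *Hoxb5*. The replicates 3 and 4 were on different slides, as were 1 and 2.

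**Figure D4:**
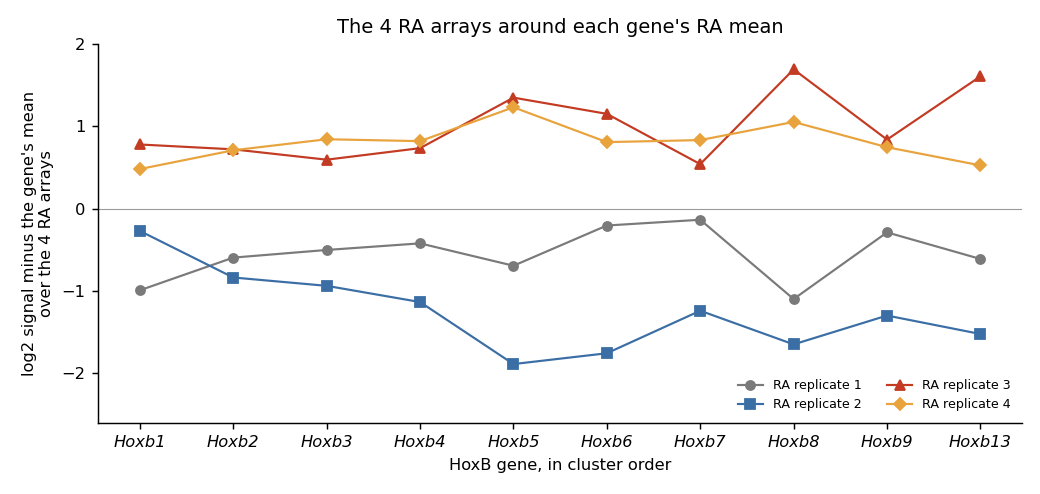
Log2 signal of each RA array minus the mean of the 4 RA arrays, for each HoxB gene in cluster order, with 1 line per replicate. Replicates 3 and 4 lie above the mean and replicates 1 and 2 below it at every gene, and replicate 2 is lowest from *Hoxb2* to *Hoxb13*.

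Markers of pluripotent cells, including *Pou5f1* and *Nanog*, moved across the RA arrays as well. All 12 of them fell after RA (limma), all 12 remained well above background on every RA array, and none was at 0. Their summed signal, on the log2 scale, was 8.85 to 9.36 on the untreated arrays and 5.02, 5.66, 4.86 and 4.31 on RA replicates 1 to 4. Replicate 2 had the highest signal among the RA arrays for 10 of the 12 and replicate 4 the lowest for 10. All 10 primitive endoderm markers rose, their summed signal going from 6.65 to 7.20 on untreated arrays to 8.07 to 8.27 on RA arrays, and of 10 hindbrain and spinal cord markers 5 rose and 2 fell, with sums of -0.44 to 0.54 and 2.78 to 3.11. Mesoderm (4 higher and 2 lower of 10), neural progenitor and neuron (4 and 1 of 7) and anterior neural markers (3 and 1 of 7) had calls in both directions. Among all probes 12.9% were called higher and 21.6% lower, so the few lower calls say little about these lists. The summed mesoderm signal went from between 1.34 and 1.58 to between 6.11 and 7.64, while the median change of its 10 members was 0.18, and the brightest member after RA was *Acta2*, a smooth muscle actin, which rose by 9.19. The anterior neural sum went from between 3.75 and 4.97 to between 1.11 and 1.82, while the median change of its 7 members was 0.03, and the 1 member called lower was *Otx2*, the brightest in untreated cells, which fell by 6.49. Both genes were named after their values were seen. The part of these cell types in the HoxB changes, or in the spread of the RA arrays, was not tested.

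Between the *Hoxb9* and *Hoxb1* probes, other transcripts were called higher as well. All 8 other probes there were called higher (limma; the share of all probes is 12.9%). One reads the strand opposite to the Hox genes, at chr11:96152394-96152453 (mm9), in a transcript known only by the identifier ENSMUST00000150698, between *Hoxb7* and *Hoxb6*. It read -7.27, -7.12, -7.00 and -7.21 in untreated cells and -2.20, -5.03, 0.59 and 0.77 after RA, with the same 2 RA arrays highest, a change of 5.68 ± 1.14 that is at least 15.7-fold (adjusted p = 4.11e-03 by limma).

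Of 6 probes for noncoding regions on the strand of the Hox genes, 3 in one region between *Hoxb5* and *Hoxb4* (chr11:96175777-96175836 and the 2 after it) had fitted changes of 5.02, 4.76 and 4.87 (adjusted p = 9.25e-04, 7.96e-04 and 1.74e-03 by limma). In untreated cells the first 2 were not well above background on any array and the third on only 1, and at the floor the changes were 16.8-fold, 7.93-fold and 14.7-fold. The 3 probes in another region, nearer *Hoxb5*, had fitted changes of 1.98, 2.35 and 0.83 (adjusted p = 2.52e-03, 0.0311 and 0.0361), the first 2 again below background on every untreated array and well above it on 2 RA arrays. At the floor these 2 changed by 1.08-fold and 1.74-fold, and the values bound no rise of the first. These last 3 were dim or changed little: the largest signals after RA were -5.02, -3.42 and -2.92. *Gm11536*, between *Hoxb4* and *Hoxb3* on the opposite strand, changed by 2.68 ± 0.52, at least 1.40-fold (adjusted p = 3.30e-03 by limma), and it differed from the Hox genes in that replicate 2 was its highest RA array, at -3.38. With the replicate number as a block the third of the lower 3 (0.83) was not called (adjusted p = 0.0552 by limma). With the slide as a block it was not called either (adjusted p = 0.0506 by limma). Under the normexp correction neither these 3 (0.18, 0.47 and 0.30) nor *Gm11536* (0.49, adjusted p = 0.0655) were called. The probes at 2.35 and 0.83 were also not called without any 1 of 6 arrays (each untreated array and RA replicates 3 and 4), at adjusted p of 0.0576 to 0.0787 and 0.0593 to 0.0964 by limma.

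Outside this stretch no other probe of the interval was called higher in the main fit. Without RA replicate 1, *Gip*, beyond *Hoxb13* and below background on every untreated array, was called higher (1.32, adjusted p = 0.0270 by limma). The counts that follow are those of the main fit. Between *Hoxb13* and *Hoxb9*, 0 of 14 probes were called higher and 7 lower, with a median change of -0.66. Beyond *Hoxb13*, to a distance of 250 kb, 0 of 12 were higher and 7 lower, and the nearest named gene, *Ttll6*, which encodes an enzyme that modifies tubulin, fell by 2.03 and by 1.75 with its 2 probes, the first of them well above background on 1 RA array only (adjusted p = 9.38e-03 and 2.72e-03 by limma). Beyond *Hoxb1*, 0 of 4 were higher and 1 was called lower, *Gm11529*, with a fitted change of -1.36 (adjusted p = 0.0265 by limma) but was not called without any 1 of 6 arrays (all except untreated replicate 4 and RA replicate 2), at 0.0529 to 0.0694. It was well above background on 1 untreated array and no RA array, so that the values bound no fall. The share of all probes called lower is 21.6%. With quantile normalization, which removes the shift of all probes, 8 of the 38 other probes of the interval were lower in place of 15.

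The 3 other clusters carry paralogues of the HoxB genes, that is, copies that share an ancestor and a number. Over HoxA, HoxC and HoxD, 18 of 29 genes rose and 2 fell, 7 and 1 of 11 in HoxA, 5 and 1 of 9 in HoxC and 6 and 0 of 9 in HoxD. The shares of all probes were 12.9% called higher and 21.6% called lower. Paralogues 1 to 9 were higher in 16 of 18 cases with a median change of 4.57 (4.12 at the floor), while of paralogues 10 to 13, which HoxB lacks save *Hoxb13*, 2 of 11 were higher and 2 lower, 8 being below background in both conditions.

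*Hoxa5*, the HoxA gene with the largest fitted change (7.26 ± 0.57, adjusted p = 2.45e-05 by limma), was below background in untreated cells and rose at least 30.8-fold, where its paralogue *Hoxb5* rose at least 29.8-fold. *Hoxa3*, named after its values were seen, was measured on all 8 arrays and rose 124-fold, and *Hoxa2* at least 49.6-fold. In HoxC the largest fitted change was that of *Hoxc9* (6.16 ± 0.74, adjusted p = 2.26e-04), well above background on 2 untreated arrays and 51.2-fold at the floor, whereas *Hoxb9* changed by 2.76. In HoxD it was that of *Hoxd8* (5.69 ± 0.28, at least 22.5-fold, adjusted p = 3.26e-06). *Hoxa6* (-0.70 ± 0.75, adjusted p = 0.457) and *Hoxa9* (0.27 ± 0.28, adjusted p = 0.446) were the 2 genes of paralogues 1 to 9 not called, beside changes of 4.80 for *Hoxb6* and 2.76 for *Hoxb9*. In the last paralogue group *Hoxc13* fell by 1.35 (adjusted p = 4.94e-04) and *Hoxd13* rose by 1.25 (adjusted p = 0.0205), while *Hoxb13* was not called. The call of *Hoxd13* was lost without untreated replicate 4, RA replicate 1 or RA replicate 4 (adjusted p of 0.0558 to 0.0563 by limma). *Hoxa11* (-0.85, adjusted p = 1.94e-03) and *Hoxa13* (1.22, adjusted p = 7.06e-04) are among the genes counted as called, but both were below background on all 8 arrays, which leaves no measured change. The differences between paralogues were not tested.

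**Figure D5:**
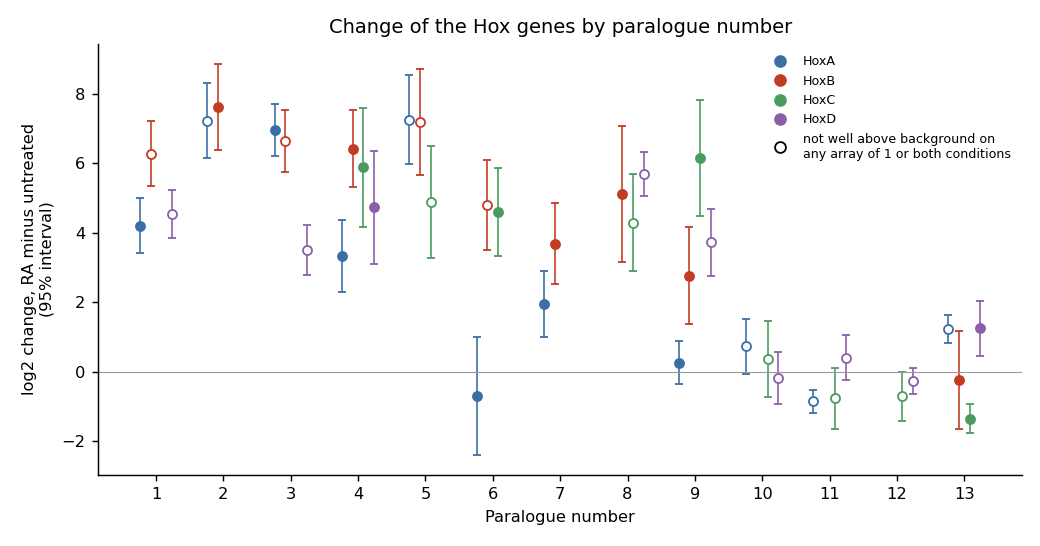
Log2 change after RA with 95% interval (limma) of every Hox gene on the array by paralogue number, coloured by cluster, with open symbols for genes not well above background on any array of 1 or both conditions. Most genes of numbers 1 to 9 lie above 0 in all 4 clusters, and those of numbers 10 to 13 lie between -1.35 (*Hoxc13*) and 1.25 (*Hoxd13*), with *Hoxb13* at -0.23.

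Genes that act on Hox clusters or with Hox proteins were counted by lists. Beside these counts, 12.9% of all probes were called higher and 21.6% lower. Of 16 retinoid receptors and enzymes, 9 rose and 3 fell. *Rarb*, an RA receptor that RA itself induces, went from -5.20, -4.61, -4.98 and -4.66 to 2.05, 1.26, 3.24 and 2.85, with replicates 3 and 4 highest and replicate 2 lowest, as for most HoxB genes. Its change was the largest of the list (7.21 ± 0.40, 148-fold, adjusted p = 5.31e-06 by limma). *Cyp26a1*, which breaks RA down, rose by 6.09 ± 0.53 (68.0-fold, adjusted p = 4.23e-05), again with replicates 3 and 4 highest, and *Rarg*, another RA receptor, fell by 2.73 (adjusted p = 7.87e-06).

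Of 12 upstream factors 4 rose and 3 fell, where 12.9% of all probes were called higher and 21.6% lower. Among the caudal factors, which open the posterior part of the clusters, only *Cdx2* had a called and measured change, a rise of 3.02 ± 0.32 (adjusted p = 1.19e-04 by limma). *Cdx1* was not called (0.19 ± 0.38, adjusted p = 0.706 by limma). *Cdx4*, counted among the 3 that fell, was below background on all 8 arrays. Among hindbrain factors, *Egr2*, which drives *Hoxb2* in the hindbrain, fell by 1.33 (adjusted p = 0.0112) and *Gbx2* fell by 2.03, the largest fall of the list (adjusted p = 7.52e-03).

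Of 9 cofactors, which bind DNA together with Hox proteins, 7 rose and none fell, led by *Meis1* (5.51 ± 0.25, 45.6-fold, adjusted p = 2.42e-06 by limma) and *Meis2* (4.80 ± 0.32, 27.9-fold, adjusted p = 1.16e-05). Of 19 chromatin regulators 7 rose and 5 fell, a share of falls close to the 21.6% called lower among all probes. *Cbx8*, a subunit of Polycomb repressive complex 1, went from below background to a change of 3.79 ± 0.48, at least 5.56-fold (adjusted p = 3.25e-04), the largest rise of that list. *Cbx7*, its relative in ES cells, was not well above background in untreated cells and only on 1 RA array, so that its probe gave no measure of it, and *Cbx6* fell by 1.33 (adjusted p = 4.00e-04).

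The 5 genes outside the Hox clusters whose profile over the 8 arrays was most like the mean of the 9 called HoxB genes were *Igdcc3*, *Cpe*, *Camk1g*, *Wt1* and *Pfn2*, with Pearson's r from 0.995 to 0.996, out of 13163 genes well above background on all RA arrays. All 5 were measured on every untreated array, and they changed by 3.54, 3.21, 2.36, 3.35 and 2.32. Since any gene that changes strongly scores high on this measure, the likeness of the deviations within the groups is given as well, as a description: r was 0.94, 0.93, 0.95, 0.98 and 0.92. The 5 genes were picked by r over the same 8 arrays, which favours high values here. No values of other genes stand beside them, so they are not separate support.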

How the data were processed

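RNA of 4 untreated and 4 RA-treated E14 samples was measured on 8 arrays of 1 colour. Per the file headers, the deposited scanner files come from Feature Extraction 10.7.3.1 of Agilent and give, spot by spot, a background-corrected intensity, the raw intensity, the intensity of the surrounding background, and quality flags. The authors also deposited log2 values of the same spots, with medians of 6.81 to 6.83 on all arrays and a rank correlation of at least 0.978 with the processed intensity of the same array. How those were normalized is not given in the sources used here.

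Corrected intensities were converted to log2 in R 4.3.3, and the 75th percentile of the 59305 spots other than controls was subtracted from each array. The 3671 control spots and 124 to 145 outlier spots per array were left out, no spot was saturated, and 33629 to 37175 spots per array were well above background. Spots of a probe were averaged, which gave 55681 probes, and a gene took the probe with the highest mean over all arrays. RA was compared with untreated by limma 3.58.1 (lmFit, eBayes), with p-values adjusted by Benjamini-Hochberg across the whole array, and probes were called at an adjusted p under 0.05 and a fold change above 1.5, the thresholds of the study's methods. A gene well above background on no array of a condition has only a bound, computed against the higher of its own signal and the lowest signal well above background on each array. The number of arrays limits the precision. The fit was tested on simulated data.

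Whether replicate numbers pair the samples was checked by correlating deviations from the group means over 27491 probes. The correlations were 0.186, 0.189, 0.104 and 0.151 for the same number, and at most 0.142 for different numbers. Replicate 3 lay below that highest value, so a pairing by number is not settled, and the main fit used none. Every HoxB gene is named, with those other Hox genes, transcripts of the interval and regulators that rose or fell most or stood on a list. The members, lists and tests were chosen with earlier results of these data known. Alternatives were quantile normalization, normexp, the authors' values, a filter on dim probes, slide and replicate as blocks, each slide alone, and each array left out. Probe positions and gene names are those of the array design (mm9). Some listed regulators and probe sequences are not reported here.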

Additional observations from a re-analysis of the deposited data

Results flagged for a closer look

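Over 118 sets of 4 arrays (59 probes in 2 conditions), an array stood far from the other 3 in 10, where chance gives about 5.9, and none of them belongs to a HoxB gene. In untreated cells these were *Hoxa6* on replicate 2 (-1.53, the others from -5.18 to -4.85), *Hoxa2* on replicate 1 (-5.94, below background), *Hoxa3* on replicate 3 (-5.56), *Cdx2* on replicate 1 (-3.26), *Cdx4* on replicate 3 (-6.39, below background) and 1 probe of the noncoding region between *Hoxb5* and *Hoxb4* on replicate 3 (-7.56, below background). After RA they were *Egr2* on replicate 1 (-4.24) and, all 3 below background, *Hoxa11* (-7.47), *Hoxa13* (-6.78) and *Hoxd11* (-7.65) on replicate 2. The change of *Hoxa6* (-0.70) had an SE of 0.75, and without untreated replicate 2 it was 0.17 (adjusted p = 0.548 by limma).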

How the results depend on the processing

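All 9 HoxB genes were called higher under quantile normalization, normexp, the authors' values, the filter on dim probes, slide or replicate number as a block, within slide 1 and without each array in turn, and 8 were within slide 2 (2 against 2 arrays), where *Hoxb9* changed by 2.28 (adjusted p = 0.172 by limma). None was called lower under any of these. Over 171 alternatives for single genes 167 kept direction and side of the threshold. *Hoxb13* reversed within slide 2 (0.054) and ranged from -0.77 to 0.27 without single arrays. As a block, the replicate number left 9 HoxB genes higher (*Hoxb9* 2.76, adjusted p = 0.0272) and ended the call given above for the noncoding region nearer *Hoxb5* (0.83) and that of 1 probe between *Hoxb13* and *Hoxb9* (-0.69, adjusted p = 0.0526). It added *Hoxa10* as higher (0.73, adjusted p = 0.0451) and *Hoxc12* as lower (-0.71, adjusted p = 0.0194), both below background on all 8 arrays and so not measured, and 1 more probe between *Hoxb13* and *Hoxb9* (-1.24, adjusted p = 0.0361) as lower. It changed no other call of the Hox genes, the interval or the regulators. Under quantile normalization 8152 probes were higher and 8704 lower, in place of 7196 and 12044.

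Pearson's r of change with position, an alternative added after seeing the data, was 0.76 under normexp, under normexp with quantile normalization and under the authors' values (0.49 in each without *Hoxb13*, in place of 0.75), 0.85 with signals below background at the floor (also added after seeing the data), and 0.87 to 0.91 without single arrays. Neighbouring pairs at the smallest exact p went from 3 to 6 under normexp, normexp with quantile normalization and the authors' values, where all 4 pairs from *Hoxb1* to *Hoxb5* were added and *Hoxb8* with *Hoxb9* was lost (0.037, 0.083 and 0.080). Without single arrays 1 to 5 pairs did, *Hoxb5* with *Hoxb6* in all 8 cases, *Hoxb8* with *Hoxb9* in 6 and *Hoxb9* with *Hoxb13* in 4 (not without any 1 RA array), and 3 pairs were added in 1 case each, *Hoxb1* with *Hoxb2* and *Hoxb2* with *Hoxb3* without untreated replicate 1 and *Hoxb6* with *Hoxb7* without untreated replicate 3. That test was not run within a slide or with slide or replicate number as a block, where it cannot reach 0.05. Of the other Hox genes 1 was lower, in place of 2, under quantile normalization, both normexp settings, the authors' values, the filter and within each slide. Other probes of the interval were higher in 4 cases under normexp, 5 under the filter and 3 within slide 2, in place of 8, and lower in 8 under quantile normalization, normexp with quantile and the authors' values, 4 within slide 1 and 2 within slide 2, in place of 15. Within slide 2 the opposite-strand transcript between *Hoxb7* and *Hoxb6* changed by 4.94 (adjusted p = 0.0983). Under quantile normalization *Gm11529* had an adjusted p of 0.0750. Of the regulators 5 were lower within either slide, in place of 11. Apart from fewer arrays within a slide and fewer probes under the filter, the cause was not tested. Signal over background limits the changes of *Hoxb1*, *Hoxb3*, *Hoxb5* and *Hoxb6*, which are bounds, and of *Hoxb8*, above background on 1 untreated array.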
